A study of Mus musculus with 3 samples.

Results

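The cytosolic ribosomal protein genes were described across 3 ages of mouse retinal horizontal cells. They were taken by symbol as every gene named Rpl or Rps with a number, together with the stalk genes Rplp0, Rplp1 and Rplp2, the like-named second genes such as Rpl22l1, and Rpsa; kinases and pseudogenes were left out. The rule found 83 genes among the 32285 counted features, 52 of the large and 31 of the small subunit. The cells came from retinas of mice carrying Cx57icre and Ai14 at postnatal days 6, 8 and 11 (P6, P8 and P11), with 1 library per age and no other genotype or treatment. Cx57icre expresses Cre from the gene of connexin 57 (Gja10), a gap junction protein of horizontal cells, and Ai14 turns on a red fluorescent protein where Cre has acted, so cells were sorted by fluorescence before droplet capture. How many animals each library pools is not given in the sources used here. Values for the ages are given in the order P6, P8, P11 unless another order is stated.

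A ribosome joins a large subunit, which forms peptide bonds, to a small subunit, which reads the messenger RNA, and each ribosomal protein is built into it in a fixed proportion. Cells therefore make the messenger RNAs of these proteins at broadly similar levels, and many of them begin with a run of pyrimidines, the terminal oligopyrimidine tract, through which growth signals acting by mTOR control their translation. Several members have a second gene whose protein can take the same place, and several shed small nucleolar RNAs from their introns. Horizontal cells are the inhibitory interneurons of the outer retina, and in the mouse they form their synapses with photoreceptors over the ages sampled here.

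The transcript start was examined for the pyrimidine tract. RefSeq start sites on GRCm38.p6 were found for 63 of the 83 members. A C within 5 bases of a listed start, followed by at least 4 bases that are all C or T on the coding strand, was present for 29 of those 63 members (46.0%) and for 21.2% of all genes in the table. Within the first 30 bases the shares were 69.8% and 37.7%. Windows of 30 bases are shown for members that the results turn on, with 10 bases before the tract and the tract in capitals: Rps26 and Rpl13a had 2 of the lowest P11 levels relative to P6, Rps18, Rps10 and Rpl22l1 had 3 of the highest, Rps24 was among the most abundant, Rplp2 belongs to the stalk, and Rps27 and Rps27l are a pair. Only members with a tract within 5 bases of a listed start are shown. Of the 6 lowest and 6 highest ratios, those of Rps12, Rpl10, Rpl9 and Rpl7l1 belong to genes without one there. They may still carry a tract, since the rule depends on where the start is listed. Rpl23a, Rpl3 and Rplp1 were not in the table.
Rps26: gccgccggatCCTCTTTCgagtcttggctc
Rpl13a: tgcgacaagaCCTCCTCCTTTCCCaggcgg
Rps18: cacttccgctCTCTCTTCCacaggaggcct
Rps10: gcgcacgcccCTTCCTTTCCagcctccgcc
Rpl22l1: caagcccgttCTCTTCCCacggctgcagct
Rps24: cgctggggtcCTTCCTTgcgcgttgatatg
Rplp2: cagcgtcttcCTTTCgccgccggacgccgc
Rps27: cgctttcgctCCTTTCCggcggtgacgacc
Rps27l: ctccccgccgCCTCTatcccggaagttgct

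The window of Rps26 lies at chr10:128626483-128626512 on the minus strand, and that of Rpl13a at chr7:45128724-45128753 on the minus strand. Those of Rps18 and Rps10 lie on the minus strand at chr17:33955646-33955675 and chr17:27635225-27635254. Rpl22l1 is at chr3:28805501-28805530 and Rps24 at chr14:24490667-24490696, both on the plus strand. Rplp2 is at chr7:141447641-141447670 on the plus strand, Rps27 at chr3:90213629-90213658 on the minus strand and Rps27l at chr9:66946077-66946106 on the plus strand. Each window spans the annotated start of transcription. Members with and without a tract by this rule had close ratios between ages. The median log2 ratio of P11 to P6 was -0.31 for the 29 members with a tract (SD 0.34). It was -0.33 for the 31 measured members without one (SD 0.29). The second group may hold genes whose tract lies farther from the listed start, so the groups are not cleanly split.

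Horizontal cells were taken as barcodes with at least 1000 detected genes, at most 10% mitochondrial counts and a count of at least 2 of the transcription factors Lhx1, Onecut1 and Onecut2. This gave 7145, 3153 and 4757 cells, with 82305608, 62520239 and 103160766 unique molecular identifiers (UMIs, each marking 1 captured transcript) and medians of 12161, 20671 and 22106 UMIs per cell. Of the 7 listed horizontal cell markers, 3 had chosen the cells; of the other 4, Calb1, Prox1 and Slc4a3 stood above 500 counts per 1000000 UMIs (CPM) at each age and Gja10 at 9.94, 26.1 and 25.4 CPM. Summed rod, cone and microglial markers were below 12 CPM. Ganglion cell markers summed to 47.7, 23.6 and 15.5 CPM, most of it Slc17a6, and Muller glia markers to 132, 142 and 206 CPM, most of it Glul; their part in the differences between ages was not tested. Amacrine markers summed to between 1476 and 1713 CPM, nearly all of it Tfap2b, a factor that horizontal cells also express. Between 8 and 15 barcodes were shared by any pair of libraries. The P8 library stood apart by the genomic length of its genes: between P8 and P6 the 20% of genes with the longest span had a median log2 ratio of -0.73, and the 20% with the shortest span, called the shortest genes here, one of 0.27. The 80 measured ribosomal protein genes are short, with a median span of 3.27 kb, so the medians of ratios that involve P8 are set beside the shortest genes. With 1 library per age, age cannot be told apart from library; no test between ages was possible, and intervals cover counting error only.

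Ribosomal protein genes supplied 4.50%, 5.36% and 3.71% of all UMIs of horizontal cells. The P8 library was the highest and the P11 library the lowest. Of the 83 members, 80 reached 20 CPM at one age or more. The median member stood at 539, 657 and 442 CPM, and the most and least abundant of the 80 lay 24.4-fold apart at P6 and 17.8-fold apart at P11. A UMI marks the 3' end of a transcript, so these levels are not divided by gene length.

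The 5 most abundant members were Rpl13, Rpl19, Rpl3, Rpl41 and Rps24. Rpl13, a protein of the large subunit, stood at 1353, 1659.9 and 1131 CPM, the first with a 95% exact Poisson interval of 1345 to 1361. Rpl19, which lies near the exit of the nascent chain, stood at 1108, 1578 and 1024 CPM. Rpl3, which reaches toward the peptidyl transferase centre, stood at 926, 1464 and 1193 CPM. P8 was the highest age for all 3 of these, and Rpl3 alone among them was higher at P11 than at P6. Rpl41, the smallest ribosomal protein, stood at 1182, 1257 and 762 CPM, and Rps24, which is needed to mature the small subunit, at 1061, 1258 and 819 CPM. Across the 80 members the order of levels was similar in every pair of libraries, with Spearman's rho between 0.91 and 0.97; this is a description across genes, which share library and depth.

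**Figure D1:**
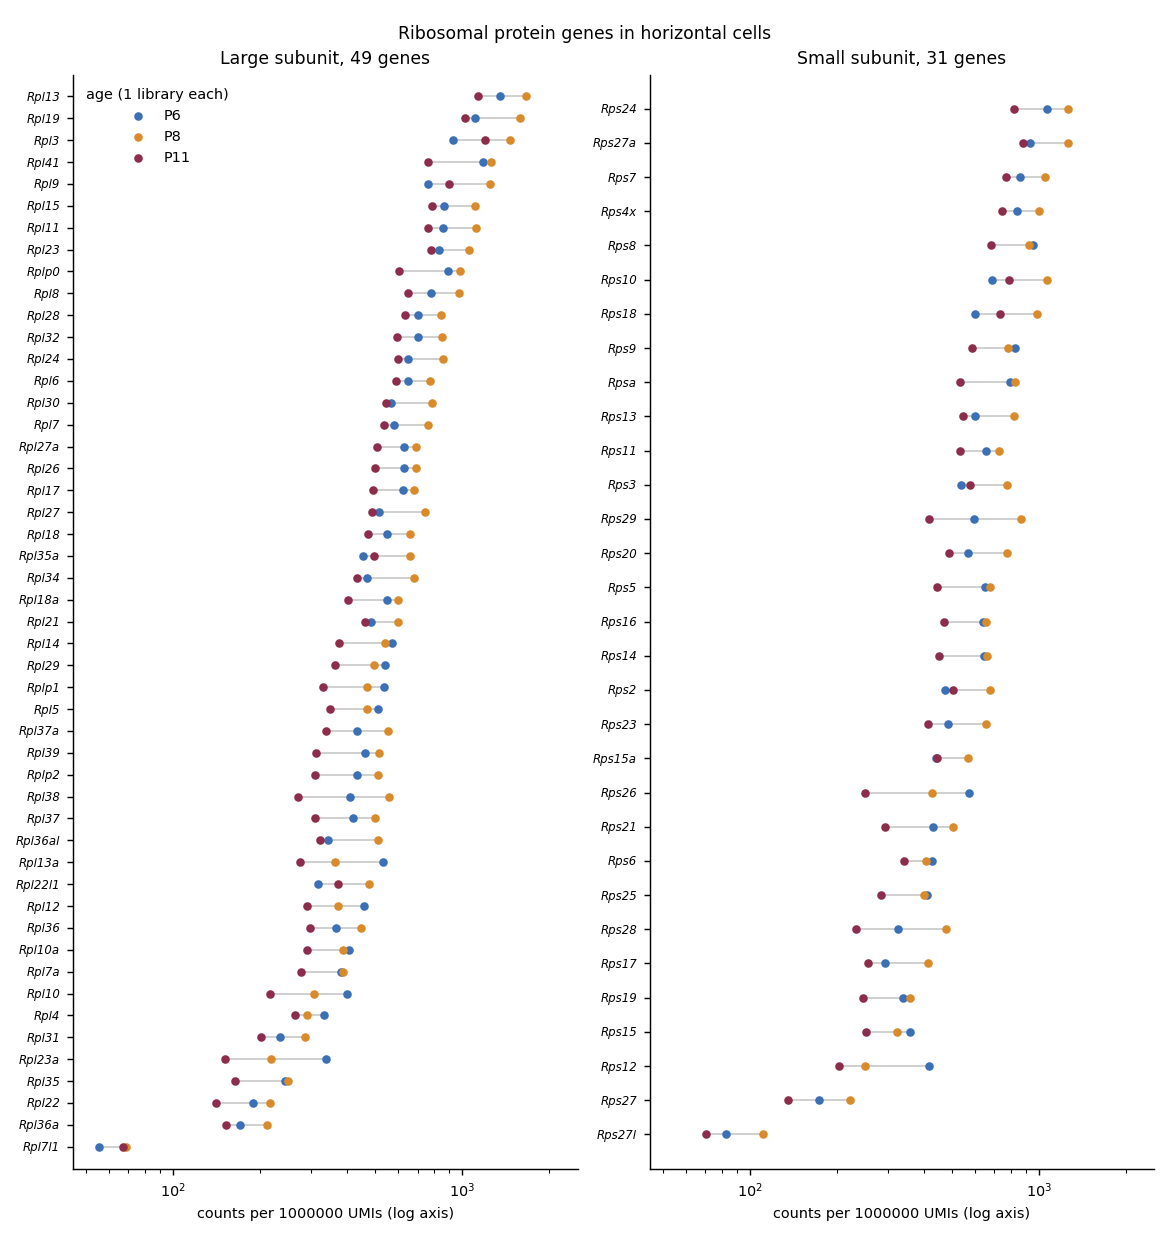
Level of each of the 80 ribosomal protein genes of at least 20 CPM (horizontal axis, counts per 1000000 UMIs, log scale), 1 point per age and 1 library per age, large subunit at left and small subunit at right, in order of mean level. The P8 point is the right-most for 63 genes, and Rpl13 heads the large subunit at 1353, 1659.9 and 1131 CPM.

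From P6 to P8 the summed level was 1.19-fold higher (95% exact conditional interval 1.188 to 1.192), and the median member had a log2 ratio of 0.27, against -0.14 for all genes of at least 20 CPM; the sign of the member median turned, to -0.0080, once the median of the shortest genes was subtracted. Of the 80 members 63 had a ratio above 1, as did 39.5% of all genes and 1041 of the 1413 shortest genes. Most members are abundant, and among genes of at least 100 CPM at the higher age the figures were 62 of 79 members and 52.5% of 2296 genes, with medians of 0.26 and 0.05. At a difference of at least 1.5-fold, 4 members were higher at P8 and 2 were lower, beside 7.97% of all genes higher and 21.7% lower. Of the 1413 shortest genes, 280 were as far higher and 58 as far lower. The 4 higher members were Rpl3, Rpl9, Rps10 and Rps18, and the 2 lower ones Rpl23a and Rps12. Once the median of the shortest genes was subtracted, 0 members were higher and 5 were lower, so none of the 4 higher ones kept its place. At a difference of at least 25% over the lower age the counts were 31 higher and 5 lower, beside 19.1% and 36.7% of all genes. Among the 1413 shortest genes 633 were higher and 152 lower by that much. The median of the members was close to that of the shortest genes, 0.27. Scaling by TMM (trimmed mean of M values) moved the median of all genes to 0.16 and that of the members to 0.54, with 32 members 1.5-fold higher and 0 lower.

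From P8 to P11 all 80 members had a ratio below 1, as did 43.3% of all genes and 1025 of the 1354 shortest genes. Among genes of at least 100 CPM, 79 of 79 members and 57.3% of 2167 genes were below 1. The median log2 ratio was -0.50, against 0.07 for all genes, -0.10 for those of at least 100 CPM and -0.26 for the shortest genes. No member was 1.5-fold higher and 26 were 1.5-fold lower, beside 10.4% and 4.55% of all genes. Of the 1354 shortest genes, 41 were 1.5-fold higher and 181 lower. At a difference of 25% over the lower age, 75 members were lower and 0 higher, beside 16.7% and 27.7% of all genes. Among the 1354 shortest genes 574 were lower and 115 higher by that much. Subtracting the median of the shortest genes left a member median of -0.24, 3 members turned positive and 3 stayed 1.5-fold lower, whereas median-of-ratios scaling gave 51. The 3 lowest ratios belonged to small proteins. Rps29 stood at 595, 862 and 416 CPM, Rpl38 at 408, 557 and 270.4 CPM, and Rps28, which lines the messenger RNA exit, at 325, 476 and 232 CPM. In each of these the P8 library was more than 2 times the P11 library, at 2.07-fold, 2.06-fold and 2.05-fold; less the median of the shortest genes their log2 ratios were -0.79, -0.78 and -0.78.

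From P6 to P11, the pair of libraries least apart by gene span (a median of -0.29 for the longest genes), the summed level was 0.825-fold (0.824 to 0.826) and the median member had a log2 ratio of -0.32, against -0.08 for all genes and 0.03 for the shortest genes. Of the 80 members 70 were below 1, as were 58.1% of all genes. No member was 1.5-fold higher and 10 were 1.5-fold lower, beside 7.35% and 12.3% of all genes, so that the share of members past 1.5-fold was near the background. At 25% over the lower age, 39 members were lower and 1 was higher, beside 26.8% and 17% of all genes. The direction of the median was the same under every scaling tried, but 19 members turned positive under TMM scaling, which moved the median of all genes from -0.08 to 0.13 and left 5 members 1.5-fold lower. Relative to that median the members stayed at -0.25. Over the 3 ages, 63 of 80 members were highest at P8, 17 were ordered P6 above P8 above P11 and 0 had the opposite order, beside 27.9%, 15.2% and 12% of all genes of at least 20 CPM at one age; the sign of P8 over P6 turned for 24 members once the shortest genes were subtracted, and for 11 under TMM scaling.

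**Figure D2:**
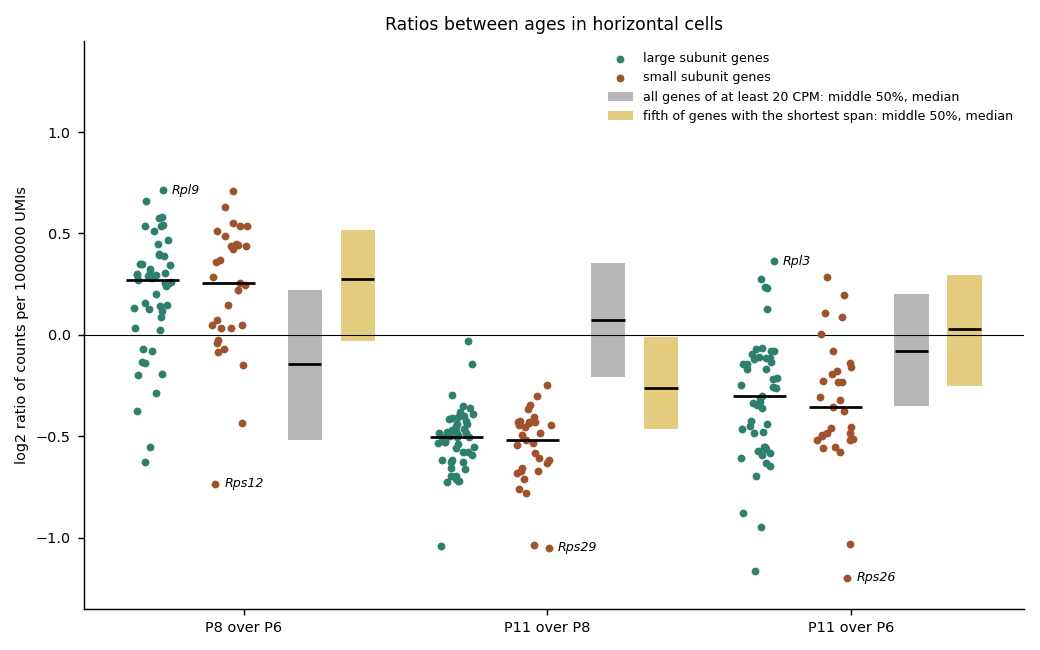
Log2 ratio of CPM between ages (vertical axis) for each of the 49 large and 31 small subunit genes (points, with the median as a bar), beside the middle 50% and median of all genes of at least 20 CPM and of the 20% with the shortest span. The members' medians lie at 0.27 and 0.26 for P8 over P6, where the shortest genes are at 0.27, and at -0.30 and -0.35 for P11 over P6, where they are at 0.03; subtracting their median turns the sign of the P8 over P6 median over all members.

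The subunits had similar ratios. The ratio of summed large to small subunit UMIs was 1.55, 1.57 and 1.58. Their median log2 ratios of P11 to P6 were -0.30 over 49 large subunit genes and -0.35 over 31 small subunit genes, each with an SD of 0.31 or 0.32 between genes. Within the large subunit, the stalk recruits elongation factors. Its base, Rplp0, stood at 889, 983 and 606 CPM. Rplp1 stood at 536, 467 and 331 CPM, and Rplp2 at 431, 510.5 and 308 CPM. All 3 were lowest at P11, while Rplp1 alone was highest at P6. Rpl5 and Rpl11, which carry the 5S RNA into the large subunit, had log2 ratios of P11 to P6 of -0.56 and -0.17. The 9 listed proteins around the exit tunnel were all lower at P11 than at P6, with a median of -0.34 that ranged from -1.16 for Rpl23a to -0.11 for Rpl19. In the small subunit, the 6 listed proteins of the messenger RNA channel split into 4 lower and 2 higher, from -1.20 for Rps26 to 0.11 for Rps3, a protein at the channel entry. Rpsa, which also serves as a laminin receptor, stood at 795, 824 and 532 CPM.

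Rps26 had the lowest ratio of P11 to P6 of all 80 members. It contacts the messenger RNA just upstream of the codon being read, and its gene lies at chr10:128624534-128626747 on GRCm38. Its level was 574, 424 and 250.2 CPM, the first with an interval of 569 to 579. Each later library was lower, and P6 was 2.29-fold above P11, a log2 ratio of -1.20 (interval -1.22 to -1.18) that lay between -1.27 and -0.999 under all settings tried. Cells thinned to 3000 UMIs showed the same order: a UMI of Rps26 was held by 80.8% of 6768 cells, 70.0% of 3056 and 50.8% of 4667, where the unthinned shares were 93.7%, 95.5% and 94.8%. The thinning left out 377, 97 and 90 shallower cells. In the same thinned cells Rps12 was held by 69.9%, 49.4% and 44.6% and Rpl23a by 61.4%, 45.9% and 35.3%. For Rpl13 the shares were 96.6%, 97.6% and 95.3%, for Rpl3 92.0%, 96.2% and 94.9%, and for Rpl22 42.5%, 46.5% and 34.7%. Rpl22l1 stood at 60.7%, 72.3% and 65.6% and Rpl7l1 at 14.8%, 17.0% and 18.3%, so not every member fell at each step.

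The next 5 members after Rps26 at the low end were all highest at P6 and lowest at P11. Rpl23a, at the mouth of the exit tunnel where the signal recognition particle docks, stood at 338, 219 and 151 CPM. Rps12, a protein of the small subunit's head, stood at 416, 250.1 and 203 CPM. Rpl13a, also known for silencing inflammatory messenger RNAs outside the ribosome, stood at 532, 363 and 275 CPM. Their log2 ratios of P11 to P6 were -1.16, -1.03 and -0.95, so that the P11 levels were 0.447, 0.489 and 0.518 of the P6 levels. Rpl10, which joins the large subunit last and lies near the P site, stood at 398, 306 and 216 CPM, a ratio of -0.88. Rplp1, named above, had a ratio of -0.70. Rps26, Rpl23a, Rps12, Rpl13a and Rpl10 stayed at least 1.5-fold lower at P11 under all settings tried, whereas Rplp1 reached -0.50 under TMM scaling.

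At the other end stood Rpl3, Rps18, Rpl7l1, Rpl9, Rpl22l1 and Rps10. Rps18, at the head of the small subunit, stood at 602, 984 and 733 CPM. Rpl9, at the base of the stalk, stood at 761, 1248 and 897 CPM, and Rps10, a small subunit protein that is marked with ubiquitin when ribosomes collide, at 686, 1061 and 787 CPM. All 6 were lowest at P6 and highest at P8. For Rpl7l1 the P8 and P11 levels, 68.6 and 67.1 CPM, lay within counting error (P11 over P8 0.979-fold, interval 0.942 to 1.017). Their log2 ratios of P11 to P6 ran from 0.20 for Rps10 to 0.36 for Rpl3 (interval 0.35 to 0.38), and none reached 1.5-fold.

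The ratios of these members were also read in other barcodes of the same libraries. The lowest 6 had ratios of P11 to P6 below the member median in 6 of 6 cases among barcodes without any of the 3 horizontal cell factors (197, 63 and 111 barcodes), and in 6 of 6 among barcodes under the gene minimum; 2 and 3 of them were again among the lowest 6. The highest 6 were above the median in 5 and 6 of 6 cases, and 3 and 4 were again among the highest 6. For Rps26 the log2 ratio there was -0.57 (interval -0.85 to -0.29) and -1.19 (-1.55 to -0.85). For Rpl23a it was -0.80 and -1.02, whereas Rplp1 in the first class stood at -0.05 (-0.27 to 0.16), against a member median of 0.0064. The member median of P11 over P6 was -0.27 under the gene minimum, against -0.32 in the kept cells. Barcodes with the horizontal cell factors but over 10% mitochondrial counts had a median of 0.03. A lower median at P11 than at P6 was thus not seen in them or in barcodes without the factors. The P11 over P8 medians were below 0 in every class, from -0.65 without the factors to -0.19 over the mitochondrial limit. Barcodes of 1 library are not independent of each other, so these are descriptions of the same 3 libraries.

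Near-identical copies bear on single values, since reads that match a gene and its copy may be lost or split. Of the 80 measured members, 48 had at least 1 other annotated gene whose transcript matched their last 200 bases at 95% identity or more over at least 150 bases, and for 11 such a copy was itself counted. Rps12 had 21 copies, Rpl23a 7, Rpl13a 4, Rps18 6, and Rps10 and Rplp1 3 each. Rps26, Rpl10, Rpl3 and Rpl9 had 1 each, while Rpl22l1 and Rpl7l1 had none. Of these members, only Rps18, Rpl10 and Rpl9 had a copy that was itself counted, and their levels are uncertain to that extent. The effect of uncounted copies on the other levels was not tested. The median log2 ratio of P11 to P6 was -0.31 with copies and -0.32 without, with SDs of 0.35 and 0.24. Members holding a small nucleolar RNA gene within their span, 29 of 80, had a median of -0.34, and the other 51 of -0.26.

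Pairs of like-named genes showed which copy supplied the messenger RNA. Rpl22, a large subunit protein that also binds RNA elsewhere in the cell, stood at 188, 217 and 140.5 CPM, and its second gene Rpl22l1 at 317, 474 and 372 CPM. Rpl22l1 was the larger part of the pair at every age, with 62.7%, 68.6% and 72.6% of the pair's UMIs. The 95% exact binomial intervals of these shares were 62.3% to 63.2%, 68.2% to 69.0% and 72.2% to 73.0%, and they did not overlap. Those of Rpl36al, given next, did not overlap either, and all cover counting error only. The Rpl22l1 share does not depend on the scaling of libraries. Rpl22 spans 8330 bases and Rpl22l1 1989, and the part of gene span in the share was not tested. Rpl36al held 66.7%, 70.7% and 68.0% of its pair with Rpl36a, and Rps27l, a gene that p53 can induce, held 32.2%, 33.3% and 34.1% of its pair with Rps27. Both first genes have a near-identical counted copy, Rpl36a-ps1 and Rps27rt, and both second genes have none, so reads of the first gene may be lost and these 2 shares are uncertain to that extent; Rpl22 and Rpl22l1 have no such copy. Rpl7l1, which resembles an assembly factor of the large subunit, held 8.75%, 8.27% and 11.1% beside Rpl7. Across the ages Rpl22l1 had the widest range of shares of these 4 second genes.

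The remaining second genes had few UMIs, and they are the 3 members below 20 CPM. Rpl3l, known from muscle, had 3, 2 and 3 UMIs, and Rpl39l, known from testis, 10, 24 and 8. Rpl10l, also known from testis, had 1 UMI at P6 and 0 at P8 and P11, where 3 counts would be 0.0480 and 0.0291 CPM. Its first gene Rpl10 had 32745, 19146 and 22308 UMIs.

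**Figure D3:**
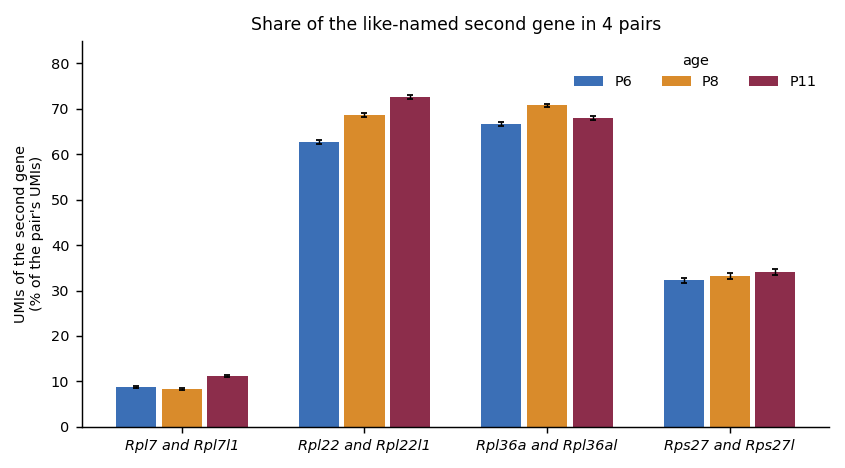
Share of a pair's UMIs held by its second gene (vertical axis, percent) in horizontal cells of each age (bars, 1 library each, with 95% exact binomial intervals for counting error). Rpl22l1 held 62.7%, 68.6% and 72.6% of its pair, and Rps27l 32.2%, 33.3% and 34.1%.

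Other parts of the translation machinery give the setting. Of the ribosome components whose symbols fall outside the rule, the 4 measured ones were all lower at P11 than at P6, with a median log2 ratio of -0.44; Rack1, a scaffold on the small subunit, stood at 498, 420 and 292 CPM and was the 1 past 1.5-fold. Medians for P11 over P6 were -0.11 over 8 elongation factors and -0.07 over 33 initiation factors, with no gene past 1.5-fold in either list. Factors at the nascent chain had a median of 0.05 over 9 genes, of which Sec61b, a subunit of the secretory channel, was past 1.5-fold at -0.68. Ribosome assembly factors had a median of -0.08 over 24 genes, none past 1.5-fold. Among 5 measured genes of RNA polymerase I, which transcribes ribosomal RNA, the median was -0.10 with 3 below 0, and Polr1c was the 1 past 1.5-fold, at 1.08. Regulators of pyrimidine-tract messenger RNAs had a median of -0.12 over 12 genes, with Eif4ebp2, a repressor of translation, at -0.66. Host RNAs of small nucleolar RNAs had a median of 0.19 over 7 genes. These medians stand nearer to that of all genes, -0.08, than to the -0.32 of the ribosomal protein genes, apart from that of the ribosome components.

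The mitochondrial ribosome is a separate machine encoded by other nuclear genes. Its 77 measured genes had a median log2 ratio of 0.44 for P8 over P6, where the shortest genes were at 0.27. Of the 77, 21 were past 1.5-fold higher and 0 lower, beside 7.97% and 21.7% of all genes. Among the 1413 shortest genes 280 were past 1.5-fold higher and 58 lower. For P11 over P8 the median was -0.36 over 76 genes, where the shortest genes were at -0.26. For P11 over P6 it was 0.04 (SD 0.28 between genes), with 44 above 0 and 33 below, where the shortest genes were at 0.03; 4 genes were past 1.5-fold higher and 0 lower, beside 7.35% and 12.3%. The farthest above 1.5-fold for P11 over P6 were Mrps28 at 0.81 and Mrps14 at 0.69. The median of the cytosolic ribosomal protein genes, -0.32, lay farther from that of the shortest genes than the mitochondrial one did.

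Single cells of 1 library differed more than counting allows. The median cell gave 4.52% of its UMIs to the 83 genes in the P6 library (5th to 95th percentile 1.41% to 6.18%), 5.37% in the P8 library (2.08% to 6.89%) and 3.72% in the P11 library (2.09% to 4.87%). The SD between cells was 5.47, 7.01 and 5.77 times the SD that counting alone would give. That multiple depends on depth: with cells thinned to 3000 UMIs it was 3.0, 3.2 and 2.5. Most cells formed 1 broad peak. A small number lay at lower shares, as a second group in the P6 and P11 libraries. In steps of 0.25% the P6 library had 121 cells at 1%, 29 at 2% and 789 at 4.25%, and the P11 library 55 at 0.5%, 20 at 1.75% and 716 at 3.75%. In the P8 library the low steps were nearly flat, with 33 at 1.75%, 20 at 2%, 25 at 2.25% and 16 at 3%, and the peak had 377 at 5.25%. Cells below 50% of their library's median were 7.52%, 6.95% and 4.60% of cells; the limit is a range and not a cell type, and 54, 52 and 33 cells lay within 10% of it.

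**Figure D4:**
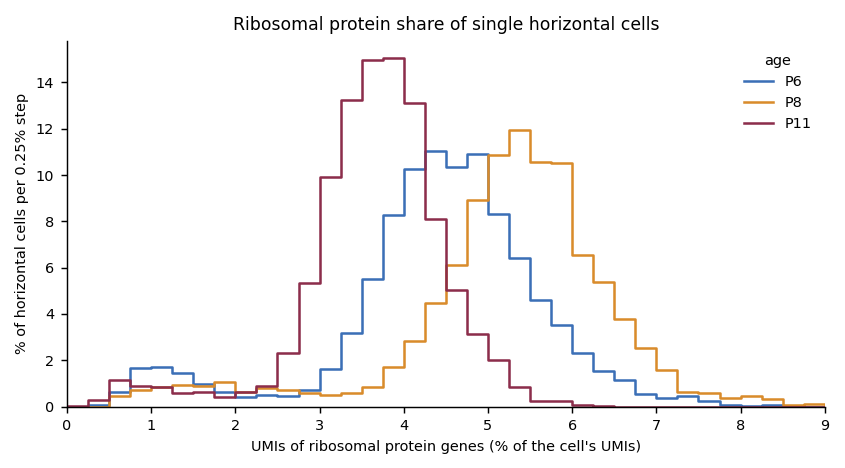
Distribution of the ribosomal protein share of single horizontal cells (horizontal axis, percent of the cell's UMIs) as the percent of cells in each step of 0.25% (vertical axis), 1 line per age. The medians are 4.52%, 5.37% and 3.72%. The P6 and P11 lines have a small second group of cells at low shares, and the P8 line is nearly flat there.

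The cells below that limit differed from the rest in other counts. Malat1, a long RNA kept in the nucleus, stood at 50095 CPM in them against 19586 in the other cells at P6, at 66443 against 14044 at P8, and at 73563 against 20609 at P11. Their median UMI counts were 3056, 6477 and 4449, against 12581, 21047 and 22377. High Malat1, low depth and low ribosomal protein share thus occurred together in every library, and the part of RNA quality in the low share was not tested.

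Barcodes that carried the horizontal cell factors and at least 1000 genes but over 10% mitochondrial counts had low ribosomal protein shares as a class. There were 641, 292 and 153 of them, and they gave 1.16%, 1.48% and 1.23% of their UMIs to these genes, against 4.50%, 5.36% and 3.71% in the kept horizontal cells. Mitochondrial genes were left out and the sums of both classes were compared within library with edgeR's quasi-likelihood test. All 80 members tested fell, beside 27.9% of 15633 genes tested that fell and 21.9% that rose, with a largest Benjamini-Hochberg adjusted p of 4.41e-08 and a median fitted log2 ratio of -2.03 over 3 libraries. The fit scales libraries by TMM; on plain CPM the median member stood at -1.73 and the median of all genes at -0.07, against 0.0021 in the fit. The p-values measure the spread between these 3 libraries, which differ in age. The genes tested were not matched to the members for level, and most members are abundant. Every member was lower in 3 of 3 libraries, and 0 rose at an adjusted or unadjusted p under 0.05 by edgeR or DESeq2.

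The members fell by unlike amounts. Rpl29, a large subunit protein, fell by 2.45 on the log2 scale in the fit, and its mean log2 ratio on plain CPM was -2.13 (SD 0.53, n = 3 libraries), from 561 to 97.7 CPM of non-mitochondrial UMIs at P6, from 511 to 100.3 at P8 and from 382 to 133 at P11. In the fit Rplp0 fell by 2.34 and Rpl3 by 2.26. At the other end Rps21 fell by 0.75 in the fit, with a mean of -0.45 on plain CPM (SD 0.18, n = 3 libraries), from 444 to 286 CPM at P6, from 519 to 429 at P8 and from 306 to 227 at P11, and Rpl18 and Rpl7l1 fell by 1.12 and 1.22 in the fit. In the same comparison 73 of 78 mitochondrial ribosome genes fell, with a median of -1.39, as did 8 of 8 elongation factors, with a median of -1.18. Malat1 stood at 45156, 64216 and 55770 CPM of all UMIs in these barcodes, against 20337, 15319 and 21409 in the kept cells. The part of RNA quality in the difference was not tested.

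Barcodes of low depth showed a smaller difference. Barcodes under 1000 detected genes, with a median of 819, 717 and 885 UMIs, still gave 3.71%, 4.61% and 3.12% of their UMIs to ribosomal protein genes. P8 was the highest of the 3 libraries in each class of barcodes, kept or not.

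**Figure D5:**
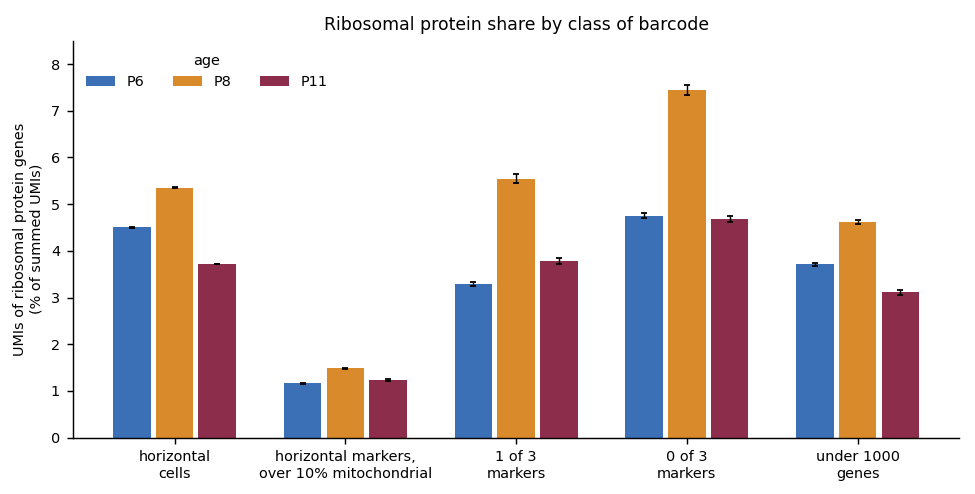
Share of summed UMIs held by the 83 ribosomal protein genes (vertical axis, percent) in 5 classes of barcode (horizontal axis), 1 bar per age and library with 95% exact binomial intervals for counting error. Barcodes with horizontal cell markers and over 10% mitochondrial counts lie at 1.16%, 1.48% and 1.23%, below every other class, and P8 is the highest age in each class.

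Among the kept horizontal cells, the share ranged over less than 1 percentage point with depth. With the cells of a library in 4 equal groups by UMI count, from shallow to deep, it was 4.16%, 4.99%, 4.69% and 4.17% at P6, 5.19%, 5.73%, 5.47% and 5.06% at P8, and 3.70%, 3.98%, 3.75% and 3.50% at P11. The second of the 4 groups was the highest in all 3 libraries. Comparing the cells above the median UMI count with those at or below it, in the same test with library as a block, 46 of 81 members fell and 3 rose, beside 11.6% and 12.6% of 15493 genes tested. The sizes were small, with a median log2 ratio of -0.10. Most members are abundant, and well-counted genes more readily pass at such sizes. The genes tested were not matched to the members for level. Rpl14 fell by 0.20, from 639 to 566 CPM at P6, from 604 to 530 at P8 and from 431 to 366 at P11 (edgeR adjusted p = 0.00098), and Rpl23a, Rps15 and Rps25 rose, by 0.11, 0.12 and 0.12. These calls were fragile: 15 members fell without the filter on low counts, 13 without the P6 library, 13 without the P8 library, 29 without the P11 library, and 0 at an adjusted or unadjusted p without the library block.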

How the data were processed

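The authors deposited raw UMI counts per gene and barcode for 3 libraries from the 10x Genomics 3' chemistry, made with Cell Ranger 7.1.0 on mm10 per the submitters' processing notes. Neither the gene annotation nor the treatment of intronic reads is given in the sources used here. The matrices held 9896, 4635 and 5517 barcodes. Doublets were not removed; leaving out the deepest 5% of cells stood in as an alternative. Counts were summed per library over horizontal cells and divided by summed UMIs (CPM). Ratios used genes of at least 20 CPM at the higher age. Classes of cells were compared with edgeR 4.0.16 in R 4.3.3 (quasi-likelihood test, TMM factors, library as a block, since both sums come from 1 library) and DESeq2 1.42.0. On simulated counts the test recovered 95.5% of 200 genes changed 2-fold for the mitochondrial comparison and 96.5% for the depth comparison. It also called 6 and 17 other genes. The simulation drew on a pooled profile without differences between libraries. It gave every gene the same fixed dispersion and changed only genes above a minimum expected count in the smallest sum. Recovery of 2-fold changes does not bear on differences as small as those of the depth comparison. Gene spans and copies came from GENCODE annotation of the same build, with blastn 2.17.0. Named genes were the 5 most abundant, the 6 highest and 6 lowest ratios of P11 to P6, the pairs, the stalk, Rps26 and Rpsa; the lowest ratios of P11 to P8, the single values in the class comparisons and the other members named by role were chosen after their values were seen. The members and lists were chosen with earlier results of these data known.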

Additional observations from a re-analysis of the deposited data

How the results depend on the processing

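For P8 over P6 the median log2 ratio of the members, 0.27, became 0.54 under TMM scaling, 0.58 under median-of-ratios scaling, 0.25 as a mean over cells and 0.22 with cells thinned to 3000 UMIs, and turned to -0.0080 when the median of the shortest genes was subtracted. The count of members at least 1.5-fold apart, 6, became 32 and 39 under the 2 scalings. For P11 over P8 the median, -0.50, became -0.58 and -0.62 under the 2 scalings, -0.54 at a limit of 5% mitochondrial UMIs and -0.24 less the shortest genes, and the count, 26, became 51 under median-of-ratios scaling and 3 less the shortest genes. For P11 over P6 the median, -0.32, became -0.12 under both scalings and -0.35 less the shortest genes, and the count, 10, became 5 under both scalings. These scalings moved the median of all genes as well; the members less all genes stayed at 0.38, -0.57 and -0.25. The cause of these shifts was not tested.

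The fall in the high-mitochondrial class covered 80 members under every alternative but the fit without the library block (no replicate block), where it covered 79. Without the filter on low counts 83 members were tested, of which 80 fell. In the depth comparison, 46 lower and 3 higher became 0 and 0 without the replicate block, 15 lower without the filter on low counts, and 13 to 29 lower and 0 to 1 higher when each library was left out. Depth limits Rpl3l, Rpl10l and Rpl39l, for which no ratio is given.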
